A study of Mus musculus with 6 samples.

Results

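The 9 genes described here encode the vascular endothelial growth factor (VEGF) family: the ligands Vegfa, Vegfb, Vegfc and Pgf, the receptor tyrosine kinases Kdr, Flt1 and Flt4, and the co-receptors Nrp1 and Nrp2, called neuropilins. They were taken as a fixed list from 19938 genes measured on arrays. This list, like the other gene lists used below, was chosen with earlier results of these data known. For each gene the probe set with exactly 1 gene symbol and the highest mean over the 6 arrays was used. All 9 were measured, each by 1 such probe set. The samples were mouse primary bone marrow, dissociated and sorted for cells that lack CD45, a leukocyte marker, and Ter119, a marker of red cell precursors, and that carry CD73, a surface enzyme that makes adenosine. They were then divided by CD105, or endoglin, a surface protein that assists receptors of the TGF-beta family. This gave 3 samples of CD73+CD105- and 3 of CD73+CD105+ cells, with 1 array for each and no other treatment. The sources used here do not give strain, age, sex or the number of animals. Whether the biological replicates of a group were different animals is not said, so a p-value covers only the spread between these samples, which may be technical.

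VEGF ligands are secreted dimers that bind receptor kinases on endothelial cells and drive vessel growth and permeability. Kdr is the main signalling receptor for the product of Vegfa. Flt1 binds the products of Vegfa, Vegfb and Pgf and, with weak kinase activity, also acts as a decoy, while Flt4 is the receptor for the product of Vegfc and is best known from lymphatic vessels. Neuropilins have no kinase domain and bind both VEGF ligands and class III semaphorins. In marrow, sinusoidal endothelium is known to carry these receptors, and reticular stroma and cartilage are known sources of ligand.

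Levels are RMA log2 values, and differences are CD73+CD105+ minus CD73+CD105- from a limma fit over all 19938 genes with Benjamini-Hochberg adjustment, called at an adjusted p under 0.05. Array medians lay between 6.27 and 6.35. The median SE of a difference was 0.0928, a precision that depends on the number of arrays and on the spread between them. The 2 replicate 1 arrays, averaged, lay unusually close to the rest, a pattern that no label describes. Gene by gene, the mean of these 2 arrays matched the mean of the other arrays with an SD of only 0.0423 log2, against at least 0.122 for the 8 other pairs of 1 array from each population. The sources used here do not say whether values were adjusted between batches before deposit, and this was not tested. If they were, a fit with no term for these arrays counts more independent arrays than there are, and its SEs and p-values may be too small. Each result is therefore also given from the fit with that term where its call changes: over all genes 363 passed without the term and 101 with it. Eng, which encodes CD105, was at 6.30 ± 0.21 and 8.06 ± 0.25 (SD, n = 3 each), and Ptprc, which encodes CD45, at 4.71 ± 0.05 and 4.70 ± 0.06. The 95th percentile of the mean levels of 1190 olfactory and vomeronasal receptor genes, which serve other tissues, was 6.01 and is called the receptor gene percentile here.

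CD73+CD105+ samples held more transcript of 2 VEGF receptor kinases than CD73+CD105- samples: Flt1 was 3.91-fold higher (95% interval 3.30 to 4.64) and Kdr 2.47-fold higher (1.86 to 3.29). The third kinase, Flt4, stood at 5.79 ± 0.13 and 5.91 ± 0.12 and did not pass. Vegfa, Vegfb and Pgf differed by at most 0.06 on the log2 scale, and Vegfc, Nrp1 and Nrp2 lay higher in CD73+CD105+ samples without passing the threshold. Of the 9 genes 2 rose and 0 fell in limma, where 1.35% of all genes rose and 0.466% fell. At an unadjusted p under 0.05 there were 5 of the 9, all higher in CD73+CD105+ samples, against 17.7% of all genes in either direction. In 5 of the 9 the groups did not overlap, all with CD73+CD105+ above, against 10.7% of all genes. Since the list was chosen with earlier results of these data known, its excess over these shares is no independent support. In sorted populations fewer cells that use a gene and less RNA per cell cannot be told apart. With a term for the replicate 1 arrays 1 of the 9 rose (0.476% of all genes), and in replicates 2 and 3 alone 1 did (0.14%). Leaving out CD73+CD105- replicate 1 (0.406% of all genes rose), CD73+CD105- replicate 2 (0.647%) or CD73+CD105+ replicate 1 (0.401%) also left 1, which was Flt1 each time.

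**Figure D1:**
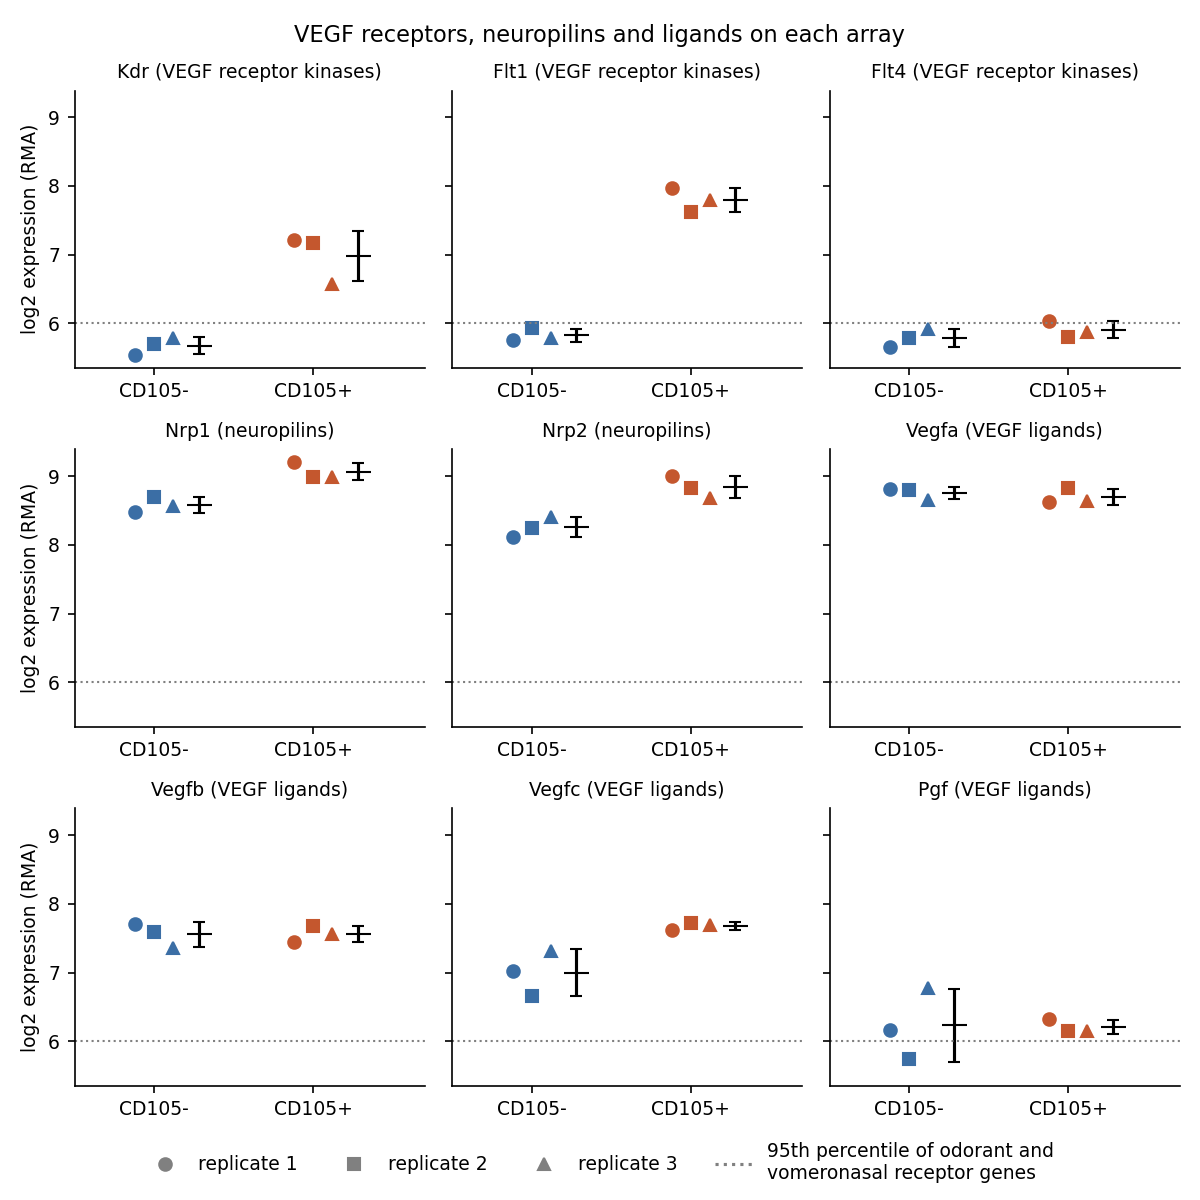
RMA log2 expression (vertical axis, shared) of the 9 genes in CD73+CD105- (blue) and CD73+CD105+ (orange) samples, with a point for each array, its shape giving the replicate number, and the mean ± SD (n = 3) in black; the dotted line is the receptor gene percentile (6.01). Flt1 and Kdr cross that line between the groups, Flt4 stays near it, and the Vegfa and Vegfb groups overlap.

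The receptor kinases are taken first, with the bases upstream of their annotated starts shown because 2 of the 3 rose and the third did not. The sequences are the 250 bases before the start (RefSeq, build GRCm38.p6, 5′ to 3′ on the gene's strand), and capitals mark GGAA or its reverse complement TTCC, the core that ETS transcription factors bind. The Flt1 window is chr5:147726012-147726261 on the minus strand, the Kdr window chr5:75978456-75978705 on the minus strand and the Flt4 window chr11:49609429-49609678 on the plus strand.
Flt1: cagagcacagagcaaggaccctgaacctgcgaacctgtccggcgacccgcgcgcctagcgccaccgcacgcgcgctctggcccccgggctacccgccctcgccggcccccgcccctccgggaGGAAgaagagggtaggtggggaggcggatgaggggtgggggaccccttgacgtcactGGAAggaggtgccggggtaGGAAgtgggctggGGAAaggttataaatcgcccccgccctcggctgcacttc
Kdr: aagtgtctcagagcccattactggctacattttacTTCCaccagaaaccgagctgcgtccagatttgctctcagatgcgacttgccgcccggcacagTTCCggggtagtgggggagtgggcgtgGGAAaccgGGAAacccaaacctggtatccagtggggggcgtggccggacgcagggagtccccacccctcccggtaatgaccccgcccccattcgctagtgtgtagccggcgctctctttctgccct
Flt4: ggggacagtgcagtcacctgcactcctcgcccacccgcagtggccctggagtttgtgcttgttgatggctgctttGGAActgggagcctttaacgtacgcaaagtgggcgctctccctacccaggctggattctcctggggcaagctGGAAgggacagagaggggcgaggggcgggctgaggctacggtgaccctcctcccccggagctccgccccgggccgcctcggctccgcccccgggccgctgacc
Counted on both strands, GGAA occurred 4 times before Flt1, 4 times before Kdr and 2 times before Flt4. Among other members that did not pass, it occurred 6 and 2 times before the 2 starts of Vegfa and 4 times before Nrp1. Nrp2, Vegfb and Vegfc held 1 each, and both starts of Pgf held 0. Of 32851 RefSeq promoter windows of the same length 93.4% held GGAA, with a median of 3.0, and 33.4% held 4 or more. The GC box GGGCGG occurred 3, 2 and 3 times before Flt1, Kdr and Flt4, and 32.7% of all windows held it. All 9 members matched a RefSeq promoter, and each had a GC box before at least 1 annotated start, and their windows were 59.2% to 76.4% G or C, against a median of 52.4% over all windows. TATAAA stood before Flt1 and no other member (12.4% of all windows), and the hypoxia core ACGTG before 1 of the 2 annotated starts of Vegfa and no other member (16.6%). Matches of different motifs among these 4 shared bases in 0 of the 11 member windows. A match is a description of these letters and says nothing about binding.

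Flt1 encodes the high-affinity receptor for the products of Vegfa, Vegfb and Pgf. In CD73+CD105- samples it stood at 5.76, 5.94 and 5.78 in replicates 1, 2 and 3, below the receptor gene percentile, and in CD73+CD105+ samples at 7.97, 7.62 and 7.80. The lowest CD73+CD105+ array lay well above the highest CD73+CD105- array, and each group spanned a narrow range. The difference was 1.97 (SE 0.10, adjusted p = 0.000356), the 27th largest increase of the 19938 genes. It passed in every alternative fit run and without each array in turn, including the fit with the replicate 1 term (adjusted p = 0.00146) and the fit on replicates 2 and 3 alone (0.0187). Since RMA compresses low values, a fold measured from a level below the receptor gene percentile may be understated, for Flt1 and for Kdr.

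Kdr encodes the receptor through which the product of Vegfa drives endothelial growth and survival. Its levels were 5.54, 5.70 and 5.79 in CD73+CD105- replicates 1, 2 and 3, all below the receptor gene percentile, and 7.21, 7.17 and 6.57 in CD73+CD105+ replicates 1, 2 and 3. The groups did not overlap, with CD73+CD105+ replicate 3 the lowest of its group. The difference was 1.31 (SE 0.17, adjusted p = 0.0182). This call was lost with a term for the replicate 1 arrays (adjusted p = 0.052) and in replicates 2 and 3 alone (1.12, adjusted p = 0.251). It was also lost without CD73+CD105- replicate 1 (adjusted p = 0.0741), CD73+CD105- replicate 2 (0.062) or CD73+CD105+ replicate 1 (0.062).

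Flt4, the receptor for the products of Vegfc and Vegfd, was at 5.66, 5.79 and 5.92 in CD73+CD105- replicates 1, 2 and 3 and at 6.04, 5.80 and 5.88 in CD73+CD105+ replicates 1, 2 and 3. The groups overlapped, and both means lay below the receptor gene percentile. The difference was 0.12 (SE 0.10, 95% interval -0.11 to 0.35, adjusted p = 0.575). Set against Flt4 on the same array, Flt1 was higher in CD73+CD105+ samples by 1.85 and Kdr by 1.19, with no overlap between groups. As Flt4 was not above the receptor gene percentile in either group, both values largely restate the Flt1 and Kdr differences. Flt1 set against Kdr was higher by 0.66, with no overlap, from levels of both below the percentile in CD73+CD105- samples. These 3 comparisons were chosen after the values were seen, and each had an exact permutation p of 0.1 (two-sided, adjusted over the 3: 0.1), the smallest that 3 samples against 3 allow.

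Both neuropilins lay higher in CD73+CD105+ samples without passing. Nrp1, a co-receptor of Kdr that binds the product of Vegfa, was at 8.47, 8.70 and 8.57 in CD73+CD105- replicates 1, 2 and 3 and at 9.20, 8.99 and 8.99 in CD73+CD105+ replicates 1, 2 and 3. The groups did not overlap, and the difference was 0.48 (SE 0.09, 1.39-fold, 95% interval 1.20 to 1.63, adjusted p = 0.0568). Nrp2, a co-receptor better known from veins and lymphatic vessels, was at 8.12, 8.24 and 8.40 in CD73+CD105- replicates 1, 2 and 3 and at 8.99, 8.83 and 8.67 in CD73+CD105+ replicates 1, 2 and 3. Again the groups did not overlap, with a difference of 0.58 (SE 0.11, 1.49-fold, 95% interval 1.25 to 1.79, adjusted p = 0.053). Both lay well above the receptor gene percentile in both populations, unlike the kinases. Their adjusted p fell under the threshold when the arrays were quantile normalized again (0.048 for Nrp1 and 0.0427 for Nrp2), over genes above the receptor gene percentile (0.0493 and 0.0442) and with array weights (0.0196 and 0.016). Under these settings 1.44%, 2.32% and 4.05% of all genes tested rose.

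Among the ligands, Vegfa, the ligand most studied in vessel growth, was at 8.82, 8.80 and 8.65 in CD73+CD105- replicates 1, 2 and 3 and at 8.62, 8.83 and 8.64 in CD73+CD105+ replicates 1, 2 and 3. The groups overlapped almost fully, and the difference of -0.06 (SE 0.09, adjusted p = 0.782) had a 95% interval of -0.26 to 0.15, or 0.833-fold to 1.11-fold. Vegfb, a ligand of Flt1 linked to fatty acid uptake, was at 7.71, 7.60 and 7.36 in CD73+CD105- replicates 1, 2 and 3 and at 7.45, 7.67 and 7.57 in CD73+CD105+ replicates 1, 2 and 3. These groups overlapped too, with a difference of 0.0080 (SE 0.11, 95% interval -0.25 to 0.27, adjusted p = 0.98) whose sign turned when the arrays were quantile normalized again (-0.0018).

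Vegfc, a ligand of Flt4 known for lymphatic growth, was the 1 of the 4 listed ligands that lay apart between the groups. It was at 7.03, 6.65 and 7.32 in CD73+CD105- replicates 1, 2 and 3 and at 7.62, 7.73 and 7.69 in CD73+CD105+ replicates 1, 2 and 3. The CD73+CD105+ arrays clustered tightly (SD 0.056) above a scattered CD73+CD105- group (SD 0.33). The difference was 0.68 (SE 0.16, 1.60-fold, 95% interval 1.23 to 2.07, adjusted p = 0.0893), and it passed with array weights (0.0317) and without CD73+CD105- replicate 3 (0.84, adjusted p = 0.0442), where 1.2% of all genes rose. Pgf, placenta growth factor, a ligand of Flt1, was at 6.17, 5.74 and 6.78 in CD73+CD105- replicates 1, 2 and 3 and at 6.33, 6.15 and 6.16 in CD73+CD105+ replicates 1, 2 and 3. Its groups overlapped, and its difference of -0.019 (SE 0.24) had the widest interval of the 9 genes, -0.58 to 0.54 (adjusted p = 0.978). In CD73+CD105- samples replicate 2 was the lowest and replicate 3 the highest for both Vegfc and Pgf.

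**Figure D2:**
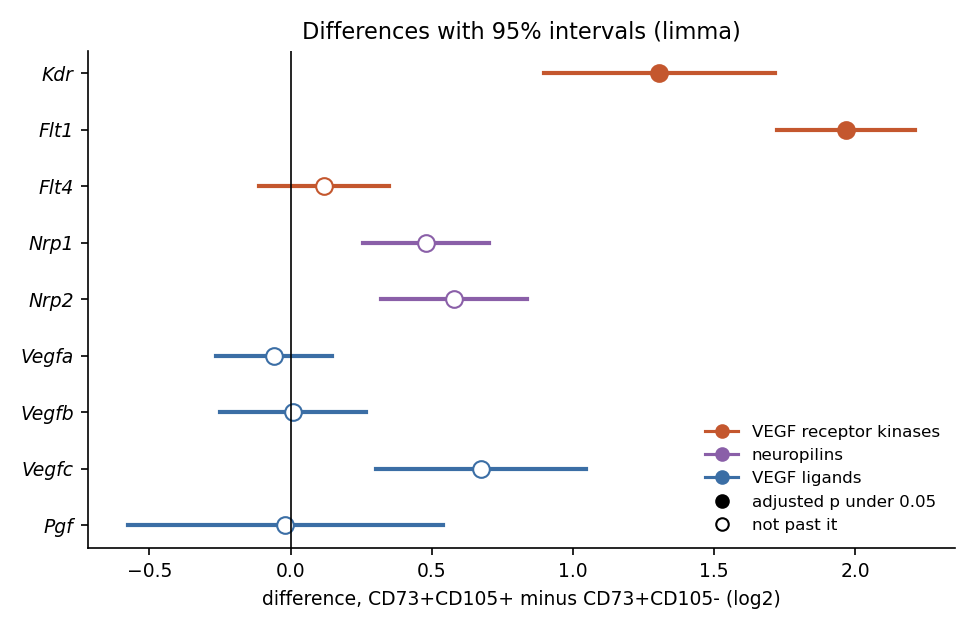
Difference between CD73+CD105+ and CD73+CD105- samples (log2, horizontal axis) for each of the 9 genes, with its limma 95% interval as a line; filled points had an adjusted p under 0.05. Flt1 (1.97) and Kdr (1.31) are filled, and the intervals of Nrp1, Nrp2 and Vegfc lie above 0 although their adjusted p did not pass.

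Because the mean of the replicate 1 arrays lay so close to that of the rest, each gene's difference is also given by subset. The subsets are replicate 1 (1 array a group, no test) and replicates 2 and 3 (2 arrays a group). The 5 genes whose groups did not overlap lay higher in CD73+CD105+ in both, as groups without overlap must in any subset. That direction is thus no separate result. For Flt1 the difference was 2.21 in replicate 1 and 1.85 in replicates 2 and 3, and for Kdr 1.67 and 1.12. Nrp1 differed by 0.73 and 0.35, and Nrp2 by 0.88 and 0.43. In these 4 receptor and co-receptor genes the replicate 1 value was the larger. Vegfc went the other way, with 0.59 and 0.72. The other 4 genes had opposite signs in these subsets: Flt4 with 0.39 and -0.014, Vegfa with -0.20 and 0.014, Vegfb with -0.26 and 0.14, and Pgf with 0.16 and -0.11. In replicates 2 and 3 alone Flt1 was the 1 member with an adjusted p under 0.05 in limma.

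Ligands and receptors are set side by side by their differences. The median difference was 1.31 over the 3 receptor kinases, 0.53 over the 2 neuropilins and -0.0056 over the 4 ligands, against -0.02 over all genes tested. Of the kinases 2 of 3 rose, of the neuropilins 0 of 2 and of the ligands 0 of 4 in limma (unadjusted p under 0.05 in 2, 2 and 1). Over all genes tested 1.35% rose and 17.7% had an unadjusted p under 0.05 in either direction. Vegfd, a VEGF ligand outside this list, rose by 0.82 (limma adjusted p = 0.0124) and is described below. For 6 known binding pairs, the log2 value of the receptor minus that of its ligand was taken on each array, which shows whether both changed alike and nothing about their relative amounts. The Flt1 to Vegfa ratio went from -2.93 ± 0.11 to -0.90 ± 0.28 (SD, n = 3 each), a rise of 2.03 or 4.07-fold. For Flt1 with Vegfb the rise was 1.96 and for Flt1 with Pgf 1.99, and the groups did not overlap in either pair. The Kdr to Vegfa ratio went from -3.08 ± 0.21 to -1.71 ± 0.34, higher by 1.36 with no overlap. Vegfa, Vegfb and Pgf differed by -0.06, 0.0080 and -0.019, so the 3 Flt1 ratios largely restate the Flt1 difference (1.97). Likewise the Kdr to Vegfa ratio largely restates the Kdr difference (1.31). Both receptors lay below the receptor gene percentile in CD73+CD105- samples. Where the ligand was Vegfc the differences were 0.63 for Kdr and -0.56 for Flt4. With Flt4 not above the receptor gene percentile in either group, the latter largely mirrors the Vegfc difference. The Kdr with Vegfc groups overlapped (exact permutation p = 0.2), and the other 5 pairs had an exact permutation p of 0.1, the smallest 3 against 3 allow (two-sided, adjusted over the 6 pairs: 0.12 for those 5 and 0.2 for Kdr with Vegfc). None of these ratios can pass a threshold of 0.05 in this design.

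**Figure D3:**
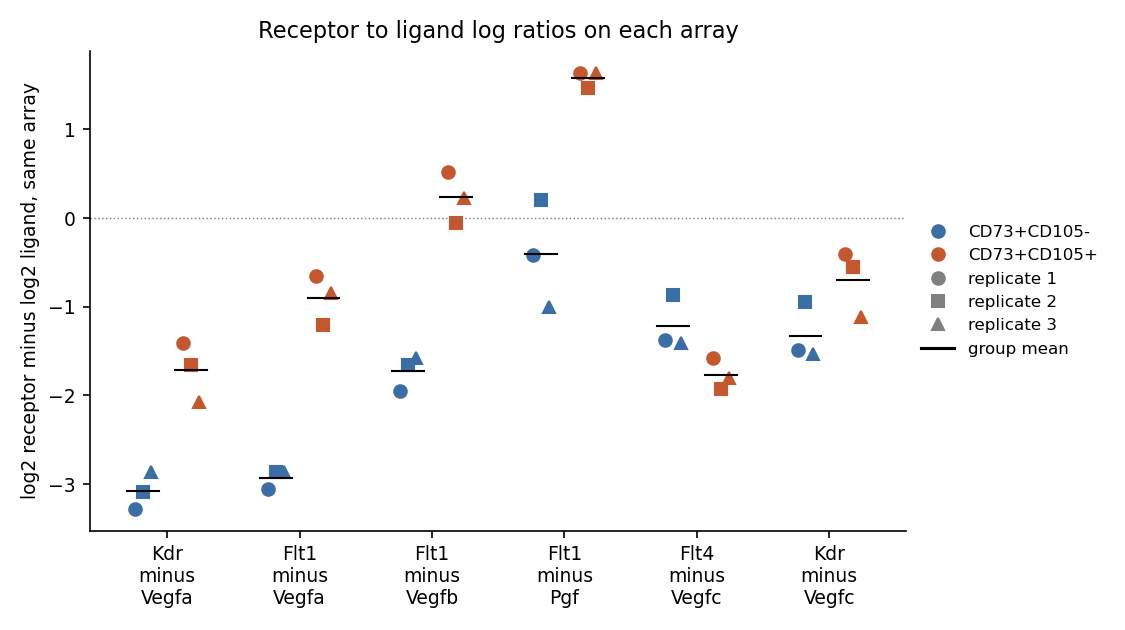
Receptor minus ligand log2 value on the same array (vertical axis) for 6 binding pairs, with blue points for CD73+CD105- and orange points for CD73+CD105+ arrays, shapes for replicate numbers and black bars for group means. The change between groups within a pair can be read, while heights of different pairs cannot be compared. The 3 Flt1 pairs rise by 1.96 to 2.03, which largely restates the Flt1 difference of 1.97.

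The genes whose profile over the 6 arrays lay nearest to a risen member were found by the root mean square difference of log2 values centred on each gene's mean. Nearest to Flt1 were Vwf, von Willebrand factor of endothelial cells (0.132), Eng, the gene of the sort marker CD105 (0.136), and Mmrn2, an extracellular protein of vessels that binds the product of Vegfa (0.152). These 3 rose by 1.83, 1.76 and 2.10. Nearest to Kdr were Ifi207, an interferon-inducible gene (0.112), Vcam1, an adhesion molecule of endothelium and reticular stroma (0.124), and Gsta4, a glutathione transferase (0.127), which rose by 1.28, 1.30 and 1.21. Gsta4 no longer passed with the replicate 1 term (adjusted p = 0.0747) or without any 1 array except CD73+CD105+ replicate 3 (0.0588 to 0.106), while the other 5 passed in these fits. Since 6 arrays in 2 groups define these profiles, any gene with a like difference lies near.

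The counts of the lists that follow stand beside the shares over all genes, of which 1.35% rose and 0.466% fell. Of 9 further genes for VEGF ligands and for the maturation of the Vegfc product 2 rose and 0 fell, with a median of 0.27. Vegfd, a second ligand of Flt4, rose by 0.82 (SE 0.10, adjusted p = 0.0124), from 6.60 ± 0.07 to 7.42 ± 0.17, and Ccbe1, a secreted factor needed to cleave the Vegfc product, by 0.41 (SE 0.07, adjusted p = 0.0483). Vegfd passed and Vegfc did not, while Flt4, the receptor of both products, had both means below the receptor gene percentile. Of 13 extracellular VEGF modulators 2 rose and 0 fell, with a median of 0.02: Mmrn2 by 2.10 (SE 0.15, adjusted p = 0.00134) and Mmp9, a protease that frees matrix-bound ligand, by 1.18 (SE 0.17, adjusted p = 0.0226). Of 13 class III semaphorins, plexins and other neuropilin partners 1 rose, Plxnd1, a plexin of vessels, by 0.71 (SE 0.08, adjusted p = 0.0114). Sema3a, a semaphorin ligand of Nrp1, was 0.51 higher without passing (adjusted p = 0.28), and the median of that list was 0.03.

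The 29 measured genes that relay receptor signals inside the cell held 0 past the threshold in limma (3 with an unadjusted p under 0.05, median 0.05). Among all genes 1.35% rose, 0.466% fell and 17.7% had an unadjusted p under 0.05, so these counts do not set the list apart. Rasa1, a RAS inhibitor, was at 0.32 (adjusted p = 0.169) and Nos3, endothelial nitric oxide synthase, at 0.26 (adjusted p = 0.147). Of 14 genes of receptor trafficking and dephosphorylation 2 rose and 0 fell (median 0.11): Ptprb, the vascular phosphatase that restrains Kdr and Tek, by 2.94 (SE 0.11, adjusted p = 0.000123), and Cav1, the coat protein of caveolae, by 0.64 (SE 0.11, adjusted p = 0.0394). Of 21 genes that VEGF is known to induce in endothelium 2 rose and 0 fell (median 0.01): Aplnr, the apelin receptor, by 2.30 (SE 0.11, adjusted p = 0.000272), and Angpt2, an antagonist of the receptor Tek, by 0.70 (SE 0.08, adjusted p = 0.00903). Of 19 hypoxia genes, a pathway that raises Vegfa, 1 rose and 1 fell (median -0.06): Epas1, a hypoxia-inducible factor subunit of endothelium, rose by 1.08 (SE 0.15, adjusted p = 0.0217), and Pdk1, a kinase that limits pyruvate oxidation, fell by 0.72 (SE 0.10, adjusted p = 0.0183). The CD73+CD105- means of Ptprb (5.71), Mmrn2 (5.38), Angpt2 (5.55) and Ccbe1 (5.85) lay below the receptor gene percentile, so their differences may be understated, as for Flt1 and Kdr.

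With the replicate 1 term Ccbe1 (adjusted p = 0.153), Mmp9 (0.0642), Cav1 (0.113), Epas1 (0.0642) and Pdk1 (0.0589) no longer passed, while Vegfd (0.0407) and Plxnd1 (0.0421) did. With 1 array left out, Mmrn2, Ptprb and Aplnr passed each time and Ccbe1 never did (0.0728 to 0.192). Without CD73+CD105- replicate 1, Vegfd (0.0614), Mmp9 (0.087), Cav1 (0.138), Angpt2 (0.0543), Epas1 (0.0788) and Pdk1 (0.0614) were lost, and without CD73+CD105+ replicate 1, Mmp9 (0.0892), Plxnd1 (0.0615), Cav1 (0.153), Epas1 (0.0631) and Pdk1 (0.0843). Mmp9, Cav1 and Epas1 were also lost without CD73+CD105- replicate 2 (0.0765, 0.101 and 0.0783) or CD73+CD105+ replicate 3 (0.057, 0.116 and 0.0527).

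Markers of other cells moved with Flt1 and Kdr in the same arrays, and their part in these results was not tested. The marker lists, too, were chosen with earlier results of these data known. Over all genes 1.35% rose, 0.466% fell and 17.7% had an unadjusted p under 0.05 in limma. Of 18 pan-endothelial markers 12 rose and 0 fell, with a median of 1.14, led by Emcn (4.61) and Adgrl4 (4.07), differences that may be understated because their CD73+CD105- means (4.58 and 4.51) lay below the receptor gene percentile. Their summed linear level was 1914 to 2211 in CD73+CD105- and 5843 to 7174 in CD73+CD105+ samples, and Sox17 alone of the 18 was under the receptor gene percentile in each group. Mmrn2, Ptprb, Aplnr and Angpt2 are also known as endothelial genes. Of 7 lymphatic endothelial markers 1 rose, Reln (0.56, adjusted p = 0.0316), and Lyve1 was at 0.44 (adjusted p = 0.0628). Their sums were 1972 to 2560 and 2450 to 2740, and Prox1, the defining factor of that lineage, and Mmrn1 lay below the percentile in both. Of 10 markers of Lepr-expressing reticular stroma 6 rose (sums 3709 to 3936 and 6246 to 7033), led by Adipoq (1.32) and Cxcl12 (1.31). Of 12 pericyte and smooth muscle markers 4 rose (sums 2287 to 2642 and 2995 to 3632), led by Rgs5 (1.72) and Tagln (0.98), while Cnn1 and Des lay below the percentile in both. With the replicate 1 term these counts were 10 pan-endothelial, 0 lymphatic, 2 reticular and 1 pericyte gene, with Reln (adjusted p = 0.0879), Adipoq (0.0822), Cxcl12 (0.10) and Rgs5 (0.0643) among those lost. These 4 were also lost without CD73+CD105- replicate 1 (0.121, 0.102, 0.114 and 0.0944) or CD73+CD105+ replicate 1 (0.112, 0.116, 0.14 and 0.089). Counting every fit with 1 array left out, Reln and Cxcl12 were lost in 5, Adipoq in 4 and Rgs5 in 3. Leukocyte markers held 0 of 11 past the threshold in limma (2 with an unadjusted p under 0.05, sums 438.1 to 469.0 and 450.3 to 468.6), with Lyz2 at 0.38 (adjusted p = 0.0731) and Laptm5 at -0.21 (0.459), and 9 of the 11 were under the percentile in each population.

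**Figure D4:**
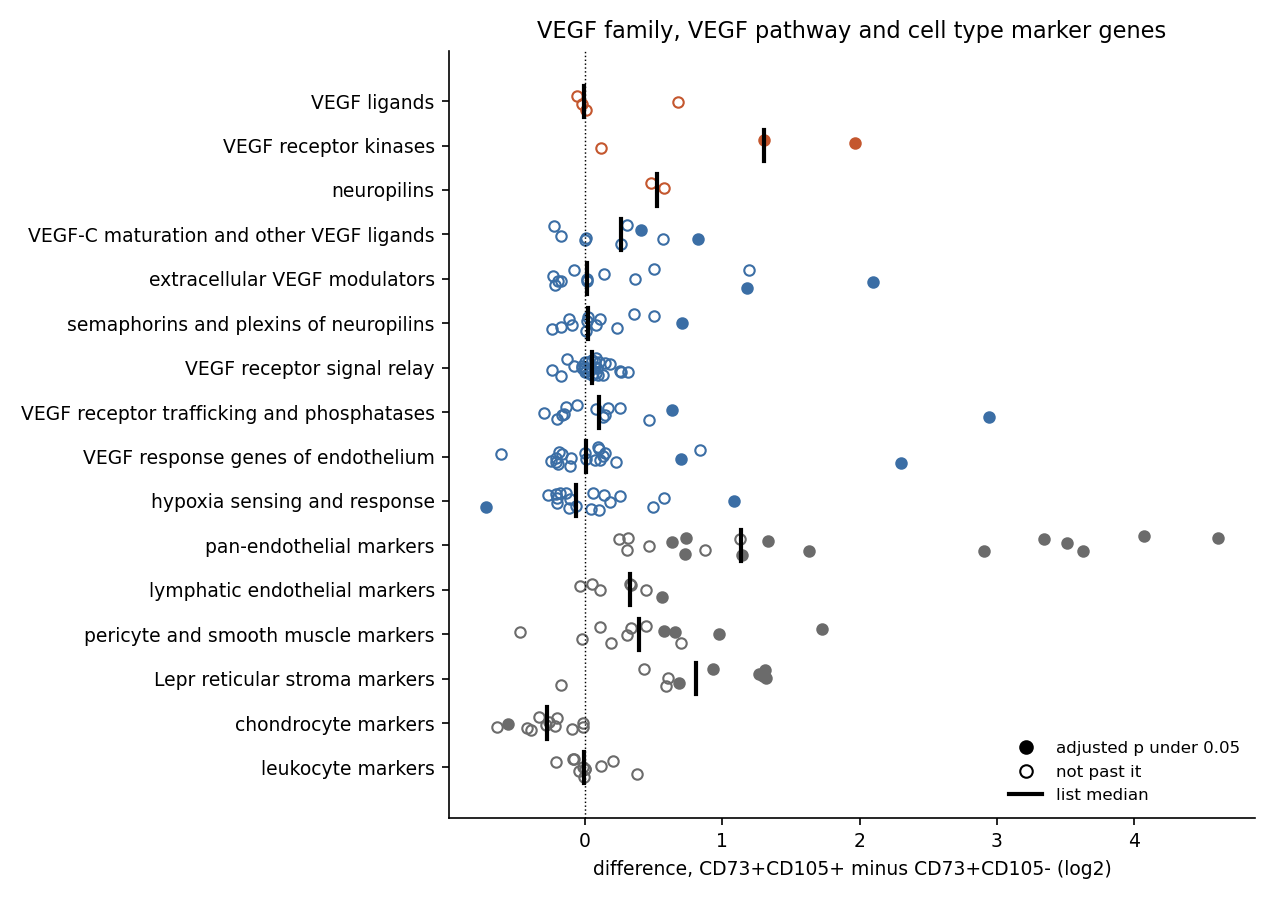
Difference between CD73+CD105+ and CD73+CD105- samples (log2, horizontal axis) for each measured gene of the VEGF family (orange), VEGF pathway lists (blue) and cell type markers (grey), with filled points for adjusted p under 0.05 and black bars for list medians; vertical scatter within a row has no meaning. Of the receptor kinases, Flt1 (1.97) and Kdr (1.31, the list median) lie above the pan-endothelial median (1.14), and Flt4 (0.12) lies below it. The ligands, signal relay and response lists centre close to 0.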

How the data were processed

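Total RNA of 6 sorted mouse marrow samples was labelled with biotin and hybridised to arrays with 1 sample each, per the labels' protocols. The deposited values are log2 expression values that the authors made with RMA, per the submitters' processing notes. RMA subtracts background, equalises the distributions of the arrays and summarises probes as a probe set. The sources used here name no software version, probe annotation or genome build. Detection calls need scanner files, not used here. Groups and replicate numbers came from sample titles.

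The platform annotation gave 1 gene symbol to 21789 of 35556 probe sets, several to 1621 and none here to 12146. The highest-mean probe set of each symbol gave 19938 genes, and 21698 of the probe sets matched RefSeq by Entrez ID with 0 changed symbols. Differences were fitted with limma 3.58.1 (lmFit, eBayes, two-sided, no block) in R 4.3.3. On simulated data with these genes' means and SDs, the fit recovered 87% of the genes shifted by 1 log2 unit and 99% of those shifted by 2, and 11 of 197 calls were false. These rates may not hold for the deposited values if the replicate 1 arrays are not independent of the rest.

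The members and the 7 pathway and 9 marker lists (124 and 98 genes, 118 and 87 measured; some genes stand in several lists) were chosen with earlier results of these data known. Named were the 9 members, the 3 nearest profiles of each risen member, up to 4 passing genes of each pathway list by size of difference, or its 2 largest where fewer than 2 passed, the 2 largest of each marker list, and, for no value of their own, some markers below the receptor gene percentile. Lists are described by counts and medians. Alternatives were a replicate block, a replicate 1 term, renormalization, median centring, averaged probe sets, a filter on dim genes, an intensity trend, array weights, all probe sets, replicates 2 and 3 only, and each array left out.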

Additional observations from a re-analysis of the deposited data

How the results depend on the processing

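Flt1 rose in every alternative run, with a difference of 1.85 to 2.06 across the fits on other settings. Kdr kept its direction in all, but passed neither with the replicate 1 term (1.31) nor in replicates 2 and 3 alone (1.12), and it ranged from 1.19 to 1.51 with 1 array left out. The count of VEGF family genes that rose is given with the share of all genes tested that rose. It was 1 with the replicate 1 term (0.476%) and in replicates 2 and 3 alone (0.14%). With 1 array left out it was 1 to 3, the 3 without CD73+CD105- replicate 3 (1.2%). It was 4 after quantile normalization (1.44%), 4 over genes above the receptor gene percentile (2.32%), where Flt4 was not tested, and 5 with array weights (4.05%). These last settings thus also called more of all genes than the reported fit (1.35%). The genes added were Nrp1 (0.47, 0.48 and 0.57 under these 3 settings), Nrp2 (0.57, 0.58 and 0.69) and, with array weights, Vegfc (0.66; 0.50 to 0.84 with 1 array left out). Directions of genes that did not pass turned for Flt4 (-0.014) and Vegfa (0.014) in replicates 2 and 3 alone, for Vegfb after quantile normalization (-0.0018), with array weights (-0.098) and with 1 array left out (-0.091 to 0.087), and for Pgf with array weights (0.084) and with 1 array left out (-0.26 to 0.26). The receptor median was 1.12 in replicates 2 and 3 alone and 1.19 to 1.51 with 1 array left out. In replicates 2 and 3 alone the neuropilin median was 0.39. Over genes above the percentile in at least 1 group the receptor median was 1.64. That filter kept Flt1 and Kdr through their CD73+CD105+ level alone and left out Flt4, so this value was raised by the selection. No receptor to ligand ratio changed direction in the settings where it was computed. The cause of these changes was not tested.

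No label says that the replicate numbers pair samples, so they were not treated as pairs. For same-numbered arrays r of deviations from the group means was -0.883, 0.0066 and 0.104 for numbers 1, 2 and 3. Although 0 of 6 arrays correlated best with their own number, this count cannot decide on pairing. The opposite deviations of the 2 replicate 1 arrays affect every array's best match. Among the arrays of replicates 2 and 3, r was higher for the same number (0.0066 and 0.104) than for different numbers (-0.374 and -0.316). The value for number 1 was the farthest from 0 of the 9 pairs of 1 array from each population. Its sign follows where the mean of 2 arrays lies close to that of the rest, so it does not show that these arrays are unlinked. With the replicate block 215 genes passed, 168 of them among the 363 of the reported fit. Flt1 and Kdr passed (adjusted p = 0.00235 and 0.0336), and the counts were 1 for VEGF-C maturation, 0 for chondrocyte, 0 for lymphatic and 2 for pericyte genes.

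Counts over all genes were 363 in the reported fit, 101 with the replicate 1 term, 389 after quantile normalization, 426 over genes above the receptor gene percentile, 305 with all probe sets tested, 319 with arrays centred on their medians, 1331 with array weights, 29 in replicates 2 and 3 alone and 86 to 293 with 1 array left out. List counts with the replicate 1 term were 1 for extracellular modulators, 0 hypoxia, 1 trafficking, 1 VEGF-C maturation, 2 reticular stroma, 1 pericyte, 0 lymphatic and 0 chondrocyte. With array weights they were 4 for extracellular modulators, 1 signal relay, 8 pericyte, 2 lymphatic, 2 chondrocyte and 1 leukocyte. With all probe sets tested they were 1 for extracellular modulators, 1 hypoxia, 1 trafficking, 1 VEGF-C maturation, 3 reticular stroma, 0 lymphatic and 0 chondrocyte. In replicates 2 and 3 alone they were 1 for extracellular modulators, 0 hypoxia, 0 semaphorins and plexins, 1 trafficking, 1 response, 0 VEGF-C maturation, 7 pan-endothelial, 0 reticular stroma, 0 pericyte, 0 lymphatic and 0 chondrocyte. With arrays centred on their medians trafficking had 1. With 1 array left out the ranges were 1 to 2 for extracellular modulators, 0 to 2 hypoxia, 0 to 1 semaphorins and plexins, 1 to 2 trafficking, 1 to 2 response, 0 to 2 VEGF-C maturation, 2 to 5 reticular stroma, 1 to 4 pericyte, 0 to 1 lymphatic and 0 to 1 chondrocyte genes. For the 37 genes named from these lists or for the nearest profiles, with 588 values over the alternatives, 94 no longer passed, 5 newly passed and 489 kept their call.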

Other observations

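Cell types known as sources of VEGF ligands were looked at through their markers. For comparison, 1.35% of all genes rose, 0.466% fell and 17.7% had an unadjusted p under 0.05 in limma. Of 12 chondrocyte markers 0 rose and 1 fell, and 7 had an unadjusted p under 0.05 in limma. Of the 12 differences 0 lay above 0, with Ihh (-0.012) and Chad (-0.011) close to it. The 1 that fell was the cartilage regulator Sox6, by 0.56 (SE 0.09, adjusted p = 0.0304), and it did not pass with the replicate 1 term (adjusted p = 0.10). It was also lost without any 1 array except CD73+CD105+ replicate 2 (0.0553 to 0.13). Its partner Sox5 had the larger difference, -0.64, without passing (adjusted p = 0.0756). The list had a median of -0.27 and summed linear levels of 40160 to 47030 in CD73+CD105- and 32560 to 40810 in CD73+CD105+ samples. Over the same arrays Vegfa differed by -0.06. Of 7 osteoblast markers 0 passed in limma (2 with an unadjusted p under 0.05), with Ifitm5, a bone membrane protein, at 0.39 and Sp7, a factor of osteoblast commitment, at -0.35, and a median of 0.08. Of 5 measured megakaryocyte markers 0 passed (1 with an unadjusted p under 0.05), with Ppbp at 0.55 (adjusted p = 0.279) and Pf4 at 0.23 (0.344), and Pf4, Ppbp and Gp9 were under the receptor gene percentile (6.01) in each population. Of 5 measured erythroid markers 0 passed (0 with an unadjusted p under 0.05), with Alas2 at -0.15 (adjusted p = 0.483) and Epor at -0.11 (0.535).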
